A study of Mus musculus with 2 samples.

Results

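A set of 9 genes of T cell receptor signaling, Cd3d, Cd3e, Cd3g, Cd247, Lat, Lck, Zap70, Trac and Prkch, were followed in single cells of mouse MC38 tumors that had or had not received MSA-2. They were picked by symbol, and all 9 of the 9 were found among the 32285 features of the count matrices. MC38 is a mouse colon carcinoma line, grown here under the skin, and MSA-2 is a nonnucleotide agonist of STING, the sensor that links cytosolic DNA to type I interferon. MSA-2 was injected into the tumor every 3 days for 3 doses. The other group is labeled untreated, negative control, while the series record describes a vehicle of saline with 10% DMSO for it. Tumors of 3 mice were pooled into 1 library per group, so no difference between the groups could be tested, and every interval below is an exact 95% interval that covers counting error only.

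The T cell receptor is a pair of variable chains, of which Trac encodes the constant part of the alpha chain, held in the membrane with the CD3 chains and the zeta chain. The receptor has no enzyme of its own. Its signal starts when the kinase Lck phosphorylates the tails of the CD3 and zeta chains, the kinase Zap70 docks there, and Zap70 phosphorylates the scaffold Lat. NK cells lack a rearranged receptor, yet they use the zeta chain, Lck, Zap70 and Lat behind other receptors. Prkch encodes protein kinase C eta, a lipid-activated kinase that has been placed downstream of the receptor.

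The matrices held 14386 untreated and 14617 MSA-2 barcodes with 198135335 and 204387165 UMIs (unique molecular identifiers, one per captured RNA). After filters on genes, mitochondrial reads and doublets, 13334 and 13393 cells were kept, with median depths of 8298.5 and 9271 UMIs, and 39 of the kept barcodes occurred in both libraries. Cells were put in a class by 12 markers each. The labels give the cell type as tumor cells, but a list of 12 epithelial tumor markers reached only 25.8 and 10.7 CPM (UMIs of a gene scaled to 1000000 UMIs of the same cells) in the largest class, which was drawn by fibroblast markers, had median depths of 20348 and 18991 UMIs and took 6429 and 6678 cells. This class is named by its markers only and may hold MC38 tumor cells as well as fibroblasts. The share of each in it was not tested.

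The lymphoid class, set without any of the 9 genes, held 1492 untreated and 264 MSA-2 cells, which is 11.2% and 1.97% of kept cells. Within it, a CD8 gate (a UMI of Cd8a or Cd8b1) held 747 and 93 cells, an NK gate (a UMI of Ncr1, Klrb1c or Klre1 and none of the T cell gate genes) 296 and 122, a CD4 gate 48 and 6, and a Foxp3 gate, which marks regulatory T cells, 83 and 7. Over all kept cells each of the 9 genes was at least 2-fold lower in the MSA-2 library, from 41.5 to 9.16 CPM for Prkch and from 5.54 to 0.552 CPM for Lat, where 8.36% of all genes were at least 2-fold lower and 11.2% at least 2-fold higher. Over the lymphoid class 5 were at least 2-fold lower (background 10.6%) and none was at least 2-fold higher (background 4.64%). Fewer cells and a lower level within cells are separated only inside the gates, where CPM give a share of RNA and not RNA per cell. In the CD8 gate UMIs per cell were higher with MSA-2 for Cd3e, Cd247, Lck, Zap70 and Trac (1.76 and 1.81 for Trac). They were lower there for Cd3d, Cd3g, Lat and Prkch. A UMI of Cd3d, Cd3e, Cd3g or Trac was found in 740 of 747 CD8 gate cells without and 90 of 93 with MSA-2. Such a UMI was also found in 94 of 296 and 19 of 122 NK gate cells. These genes belong to the 9 and do not tell CD8 cells from other T cells, so they are no independent check of the CD8 gate. Its median depths also differed, at 3655 and 5203 UMIs. The NK gate genes Ncr1, Klrb1c and Klre1 summed to 188 and 186 CPM in the CD8 gate (639 and 97 UMIs).

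Promoters are shown for those 4 of the 6 genes with an interval clear of 0 in the CD8 gate that have a listed promoter. Cd3d and Cd3g, which lie head to head on chromosome 9 with 1354 bases between them, and Lat were lower there in the MSA-2 library, and Cd247 was higher. Each line gives the 250 bases before the gene's start from RefSeq (GRCm38.p6), read 5′ to 3′ on the gene's strand, at chr9:44981536-44981785 (+), chr9:44980432-44980681 (-), chr7:126369569-126369818 (-) and chr1:165788431-165788680 (+). Capitals mark GGAA or its complement TTCC, the core letters bound by ETS factors.
Cd3d: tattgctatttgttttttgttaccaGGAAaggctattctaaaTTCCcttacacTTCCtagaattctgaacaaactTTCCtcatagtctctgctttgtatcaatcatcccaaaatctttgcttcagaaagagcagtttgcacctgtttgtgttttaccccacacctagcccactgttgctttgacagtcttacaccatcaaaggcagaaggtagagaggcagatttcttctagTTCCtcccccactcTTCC
Cd3g: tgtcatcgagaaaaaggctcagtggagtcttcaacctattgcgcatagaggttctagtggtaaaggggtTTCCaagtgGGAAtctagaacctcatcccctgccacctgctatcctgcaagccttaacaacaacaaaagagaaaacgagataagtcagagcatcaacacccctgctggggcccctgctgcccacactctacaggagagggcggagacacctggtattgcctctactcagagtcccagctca
Lat: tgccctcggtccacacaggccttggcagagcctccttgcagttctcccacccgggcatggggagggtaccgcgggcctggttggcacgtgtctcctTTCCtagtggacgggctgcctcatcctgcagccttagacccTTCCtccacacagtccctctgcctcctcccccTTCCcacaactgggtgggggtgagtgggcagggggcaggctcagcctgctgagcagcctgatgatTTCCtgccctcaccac
Cd247: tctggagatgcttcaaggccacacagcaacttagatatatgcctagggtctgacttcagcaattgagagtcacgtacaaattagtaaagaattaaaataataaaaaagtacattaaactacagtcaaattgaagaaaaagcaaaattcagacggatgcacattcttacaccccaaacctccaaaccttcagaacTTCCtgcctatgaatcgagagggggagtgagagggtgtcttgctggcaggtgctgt
The letters occurred 6 times before Cd3d, 2 times before Cd3g, 4 times before Lat and 1 time before Cd247, and 93.45% of the 32851 listed promoters of this length hold them at least once. The RUNX letters TGTGGT, searched on both strands, were in none of these 4 windows and in 14.05% of all promoters. Promoters were listed for 7 of the 9 genes. Trac and Prkch had no entry.

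In the CD8 gate, the CD3 chains did not move as a block. Cd3g, whose product pairs with CD3 epsilon, was at 1279.5 CPM (4353 UMIs) in the untreated and 849.8 CPM (444 UMIs) in the MSA-2 library, a log2 ratio of -0.59 (interval -0.73 to -0.45). Cd3d, which encodes the delta chain, was at 569 and 398 CPM, a log2 ratio of -0.52 (-0.73 to -0.31). Cd3e, which encodes the epsilon chain that pairs with the other 2, was at 304.2 and 304.3 CPM, with an interval of -0.25 to 0.24. Both genes of the head-to-head pair were thus lower in the MSA-2 library by more than the counting error, while Cd3e, on the same stretch of chromosome 9 (44998740 to 45009627), was level. The ratios of Cd3d and Cd3g lay within the 25th to 75th percentile of all genes in this gate (-0.62 to 0.24). With every cell given equal weight the ratio of Cd3e was -0.31.

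The other receptor parts in the CD8 gate pointed in different directions. Trac was at 385 CPM untreated and 322 CPM with MSA-2, a log2 ratio of -0.26 (-0.50 to -0.03), close to the median of -0.18 over all 9879 genes with at least 20 UMIs in this gate. Cd247, the gene of the zeta chain, which carries most of the receptor's activation motifs, was at 144 and 203 CPM, a log2 ratio of 0.49 (0.17 to 0.80), and is the only one of the 9 whose interval lay above 0 there. With gates set on cells thinned to 1500 UMIs (500 and 54 cells) its ratio was 0.01. Cd247 shares part of its span with 6 other annotated genes, among them Pou2f1 on the other strand, and reads of a same-strand neighbor cannot be told apart from its own. Cd3e, Lat and Lck also overlap 1 annotated gene each on their own strand.

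Of the enzymes and the scaffold behind the receptor, both kinases were level in the CD8 gate. Lck was at 272 and 279 CPM (log2 ratio 0.04, -0.23 to 0.29). Zap70 was at 92.3 and 103 CPM (0.16, -0.28 to 0.58). Lat was lower, at 143 CPM (487 UMIs) untreated and 80.4 CPM (42 UMIs) with MSA-2, a log2 ratio of -0.83 (-1.32 to -0.38). The intervals of both kinases include 0, which does not show that they were equal. With every cell given equal weight Lck had a ratio of -0.24.

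Prkch was the gene with the lowest ratio of the 9 in the CD8 gate. It was at 887 CPM (855 to 919) in the untreated and 350.3 CPM (301 to 405) in the MSA-2 library, from 3017 and 183 UMIs, which is 2.53-fold lower (log2 ratio -1.34, -1.56 to -1.12). It was the only member past 2-fold in this gate, where 12.8% of all genes were at least 2-fold lower and 5.99% at least 2-fold higher. 1 of 9 is near that background, so the count says nothing about the 9 as a list, whose median log2 ratio was -0.26.

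**Figure D1:**
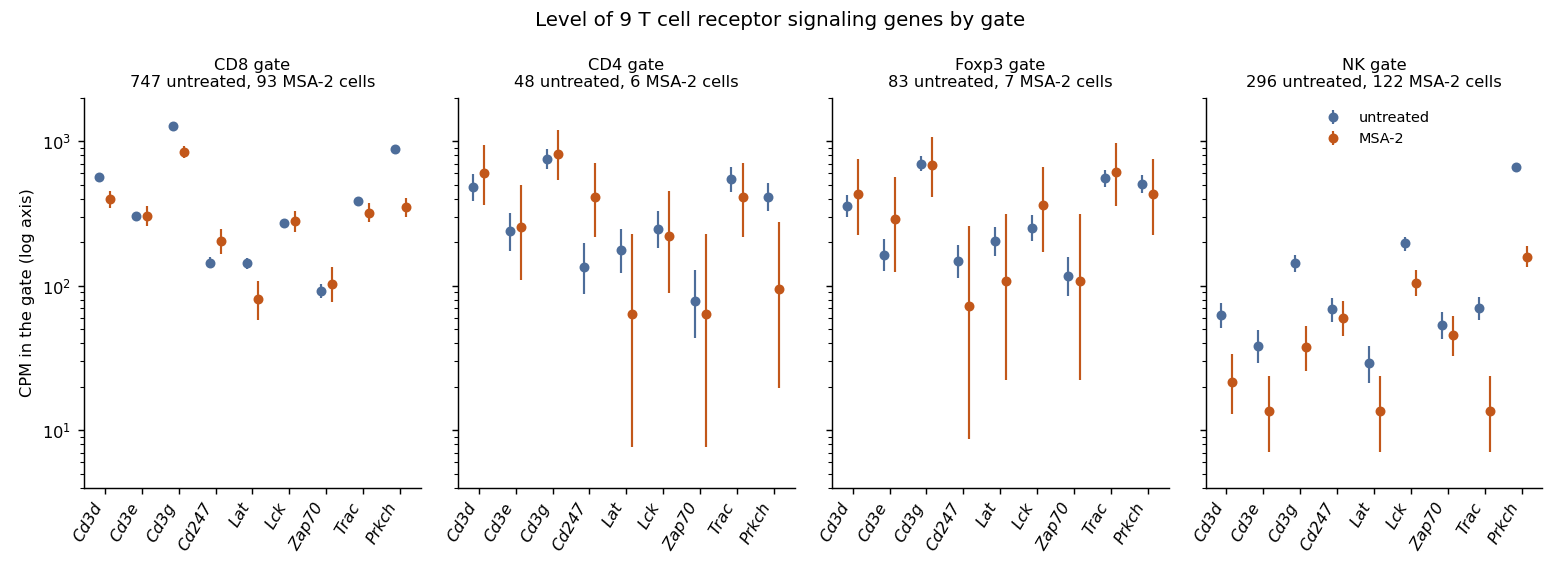
Level of each of the 9 genes in CPM (log axis) in the 4 gates, with untreated in blue and MSA-2 in orange, 1 pooled library each; points are the level and bars the exact 95% Poisson interval. In the CD8 gate Prkch stands at 887 and 350.3 CPM and Cd3e at 304.2 and 304.3 CPM, and the bars of the CD4 and Foxp3 gates are wide because 6 and 7 MSA-2 cells carry them.

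Shares of cells with a UMI were compared at equal depth. With every cell thinned to 1500 UMIs (10 untreated and 2 MSA-2 cells were shallower and left out), Prkch was detected in 70.1% (66.7 to 73.4) of CD8 gate cells without and 31.9% (22.5 to 42.5) with MSA-2. Without thinning the shares were 90.6% and 71.0%, at median depths of 3655 and 5203 UMIs. Lck was detected in 38.8% and 39.6% of thinned cells, and Cd247 in 19.1% (16.4 to 22.2) and 24.2% (15.8 to 34.3), shares whose intervals overlap. In the macrophage/monocyte class, which should lack T cell receptors, thinned shares of the 8 genes other than Prkch were at most 0.628% untreated and at most 0.264% with MSA-2, at median depths of 5537 and 4361 UMIs.

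A thinned CD8 gate cell held on average 3.89 of the 9 genes without and 3.15 with MSA-2. At least 5 were seen in 35.0% and 15.4% of cells, and none in 1.63% and 2.20%. The share of Prkch differed most of the 9 there (70.1% and 31.9%), and those of Lck and Cd247 were not lower. For NK gate cells the mean was 1.63 and 0.727, and 53.7% of thinned MSA-2 cells held none of the 9 against 20.1% of untreated cells. Prkch again differed most (62.5% and 20.7% of thinned NK gate cells), and the shares of Cd247 and Zap70 were not lower.

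**Figure D2:**
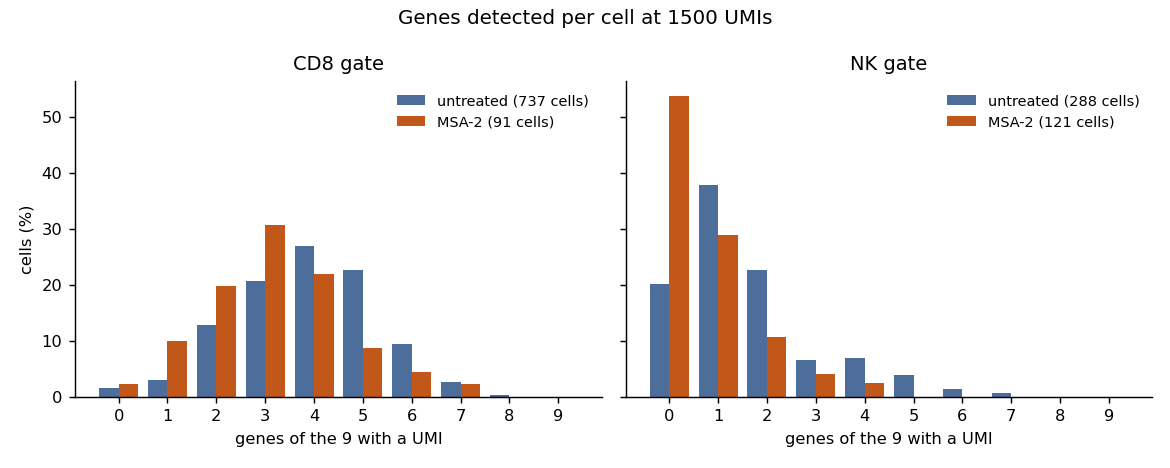
Percent of cells (vertical axis) with 0 to 9 of the 9 genes detected (horizontal axis) after thinning each cell to 1500 UMIs, in the CD8 gate (737 untreated and 91 MSA-2 cells) and the NK gate (288 and 121 cells). In both gates MSA-2 cells (orange bars) tend toward fewer detected genes than untreated cells (blue bars), and 53.7% of MSA-2 NK gate cells fall at 0. Of the 9 genes, the share of cells with Prkch differs most in both gates.

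In the NK gate all 9 log2 ratios were below 0, with a median of -1.49 against -0.14 over all 8541 genes with at least 20 UMIs. Of the 9, 6 were at least 2-fold lower in the MSA-2 library, where 8.47% of all genes were; none was at least 2-fold higher, where 5.01% were. Of those 6, Cd3d, Cd3e, Cd3g and Trac encode receptor chains that are not part of NK cell receptors. Trac was at 69.8 CPM untreated and 13.6 CPM with MSA-2 (log2 ratio -2.35, -3.35 to -1.49), and Cd3g at 143 and 37.5 CPM (-1.93, -2.51 to -1.40). Cd3d was at 62.4 and 21.6 CPM and Cd3e at 38.3 and 13.6 CPM, log2 ratios of -1.53 and -1.49. The number of gate cells that carry any of these 4 moved with them, from 94 of 296 to 19 of 122 cells, and its part in the 4 ratios was not tested.

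The genes that NK cells share with T cells were read again in the NK gate cells without a UMI of Cd3d, Cd3e, Cd3g or Trac, 202 untreated and 103 MSA-2 cells. Prkch was at 577 CPM (654 UMIs) and 133 CPM (100 UMIs) there, a log2 ratio of -2.12 (-2.44 to -1.81), and at 667 and 159 CPM (-2.07, -2.33 to -1.81) in the whole NK gate. Lck was at 178 and 97.0 CPM (-0.88, -1.28 to -0.48), against -0.91 in the whole gate. Prkch and Lck were therefore lower in the MSA-2 library with and without the cells that carried a CD3 or alpha chain UMI.

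Cd247 and Zap70, which NK cells use behind Ncr1, differed little in the same cells. In the whole NK gate Cd247 was at 68.5 and 60.3 CPM (-0.19, -0.69 to 0.30) and Zap70 at 53.1 and 45.5 CPM (-0.22, -0.80 to 0.33). Without the cells carrying a CD3 or alpha chain UMI their log2 ratios were -0.08 (-0.71 to 0.54) and -0.01 (-0.67 to 0.64). Lat was at 29.0 and 13.6 CPM (-1.09, -2.14 to -0.15) in the whole gate, and its interval included 0 without those cells (-0.70, upper end 0.48). The partners that carry activation motifs for NK receptors were Fcer1g, at 2196 and 1651 CPM (-0.41, -0.50 to -0.32), and Tyrobp, at 949 and 1009 CPM (0.09, -0.03 to 0.21). The intervals of Hcst, Syk, Fcgr3 and Sh2d1b1 included 0 (ratios from -0.06 to 0.45).

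**Figure D3:**
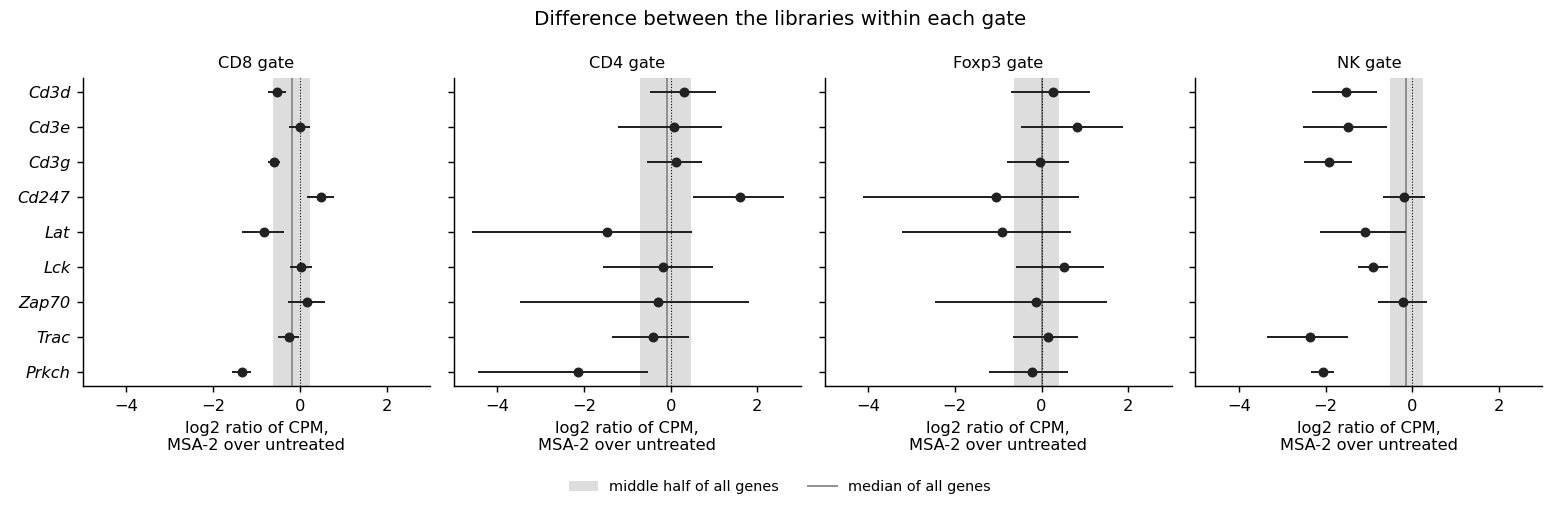
Log2 ratio of CPM, MSA-2 over untreated, for each of the 9 genes in the 4 gates (points, with exact 95% counting intervals); the gray line is the median and the gray band the 25th to 75th percentile of all genes with at least 20 UMIs in the gate. For the NK gate 7 of 9 intervals lie below 0, and in the Foxp3 gate all 9 include 0.

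The CD4 and Foxp3 gates rest on 6 and 7 MSA-2 cells. In the CD4 gate 2 members were at least 2-fold lower, Prkch (80 and 3 UMIs, log2 ratio -2.13, -4.44 to -0.53) and Lat (34 and 2 UMIs, -1.48, -4.58 to 0.49), where 17.4% of genes with at least 20 UMIs were. The 2 UMIs of Lat lay below the floor of 3 UMIs that was given to genes with none. Cd247 was higher, at 135 and 412 CPM from 26 and 13 UMIs (1.61, 0.53 to 2.62), where 10.3% of genes were at least 2-fold higher, and its 13 MSA-2 UMIs came from 3 of the 6 cells. The remaining 6 intervals included 0. In the Foxp3 gate Cd247 (57 and 2 UMIs, log2 ratio -1.05, -4.13 to 0.87) was the only member at least 2-fold lower, where 14.5% of genes were. The 499 of 3691 genes with no MSA-2 UMI were given a floor of 3 UMIs, above the 2 of Cd247. The call and the share are therefore not on the same scale. No member and 9.56% of genes were at least 2-fold higher. Prkch was at 506 CPM (437 to 583) and 432 CPM (223 to 755) in the Foxp3 gate, a log2 ratio of -0.23 (-1.21 to 0.61), an interval that overlaps that of the CD8 gate (-1.56 to -1.12).

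Across gates of the untreated library, Prkch was at 887 CPM in the CD8 gate, 667 in the NK gate, 506 in the Foxp3 gate and 415 in the CD4 gate, and the intervals of the last 2 (437 to 583 and 329 to 517) overlap. In the MSA-2 library the order was Foxp3 gate (432), CD8 gate (350.3), NK gate (159) and CD4 gate (95.01), where the first 2 intervals overlap and those of the NK gate (134 to 188) and the CD8 gate (301 to 405) do not. The CD4 value rests on 3 UMIs, and its interval (19.6 to 278) covers that of the NK gate. Trac, Cd3d, Cd3e and Cd3g were each lowest in the NK gate in both libraries. So were Cd247 (68.5 and 60.3 CPM), Lat (29.0 and 13.6 CPM) and Lck (196 and 105 CPM). The interval of Lck there overlaps that of the CD4 gate in both libraries and of the Foxp3 gate untreated. With MSA-2, the NK gate interval of Cd247 overlaps that of the Foxp3 gate, and that of Lat those of the CD4 and Foxp3 gates. Zap70 was also lowest in the NK gate in both libraries, at 53.1 and 45.5 CPM, but its intervals overlap those of the CD4 gate in both libraries and of the Foxp3 gate with MSA-2.

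Prkch was also counted outside the 4 gates. In the other lymphoid cells it was at 668 and 171 CPM, a log2 ratio of -1.97 (-2.67 to -1.34). In the macrophage/monocyte class it was at 55.2 CPM (1397 UMIs) untreated and 55.5 CPM (452 UMIs) with MSA-2, a log2 ratio of 0.01 (-0.15 to 0.16), where 7.64% of genes were at least 2-fold lower and 8.39% at least 2-fold higher. In the neutrophil class it was lower, at 61.3 and 14.5 CPM from 15 and 247 UMIs (-2.07, -2.82 to -1.22). In the fibroblast-marker class it was 2.05-fold lower, at 4.31 and 2.10 CPM (-1.04, -1.24 to -0.84). The share of all genes past 2-fold was not counted in these classes. In the endothelial class Prkch was at 360.4 and 302 CPM (-0.26, -0.51 to 0.00), and in the dendritic cell class at 91.4 and 52.0 CPM (-0.81, -2.46 to 0.45). The other 8 members were at most 5.30 CPM untreated and at most 0.982 CPM with MSA-2 in the macrophage/monocyte class, and are read there as background. Of all Prkch UMIs, 66.1% lay in the lymphoid class without and 20.4% with MSA-2. This share was lower with MSA-2 for every other member too, least for Cd3e (86.1% and 82.1%). For Lck the shares were 80.1% and 54.4%, for Lat 81.7% and 60.4%, and for Trac 84.7% and 68.2%. The lymphoid class itself held 11.2% and 1.97% of kept cells, and its part in these shares was not tested.

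**Figure D4:**
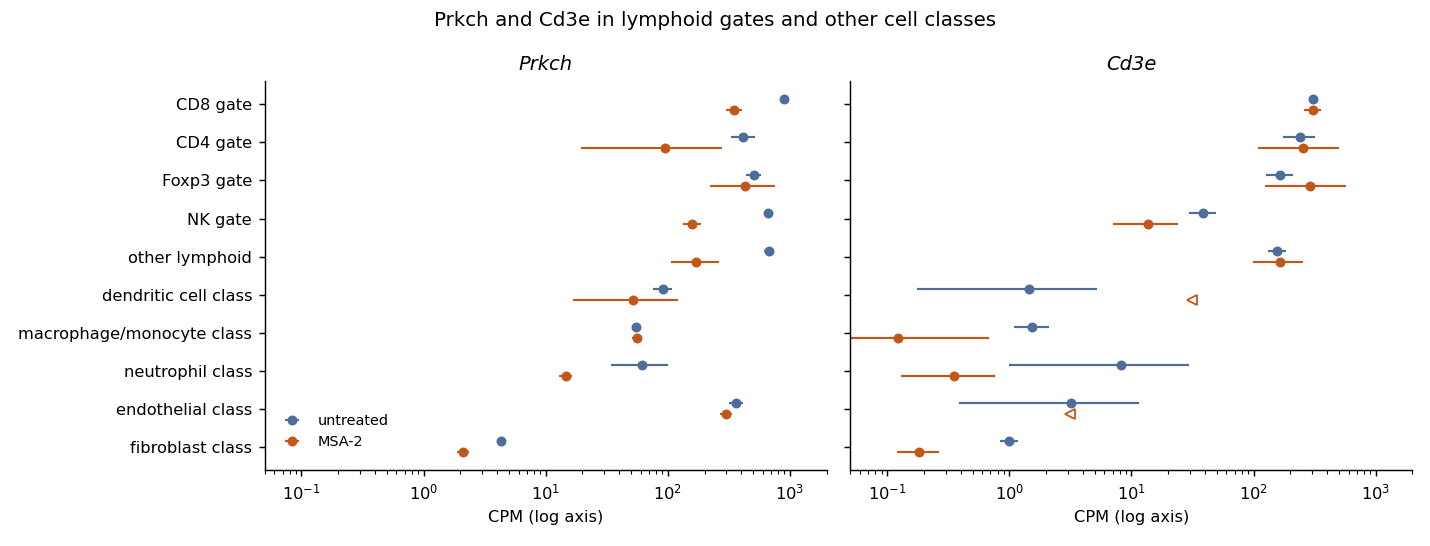
Level of Prkch (left) and Cd3e (right) in CPM (log axis) in the lymphoid gates, other lymphoid cells and 5 other classes, untreated in blue and MSA-2 in orange with exact 95% Poisson intervals; open triangles mark the floor of 3 UMIs where none was counted, and intervals are cut at the left edge. Prkch stands at 55.2 and 55.5 CPM in the macrophage/monocyte class and at 360.4 and 302 CPM in the endothelial class, where Cd3e is at or near 0.

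Among 14320 genes, the profiles most like that of Cd3e over 20 points (10 classes and gates in 2 libraries) were those of Cd3d, Cd3g and Trac, with Pearson r of 0.994, 0.991 and 0.985. Those most like that of Prkch were Dusp2, Tacc1 and Fryl (0.920, 0.920 and 0.904). The points share libraries and depth, so these values are a description.

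Other protein kinase C genes were read beside Prkch. In CD8 gate cells Prkca was at 401 and 350.3 CPM (log2 ratio -0.20, -0.43 to 0.03), and Prkcq, the theta isoform that gathers at the T cell contact, at 70.8 and 95.7 CPM (0.43, -0.04 to 0.88). Prkcb, Prkcd, Prkce and Prkcz had ratios from 0.19 to 0.45 with intervals that include 0, and Prkci had 2 MSA-2 UMIs. For NK gate cells Prkcq was higher (43.8 and 80.7 CPM, 0.88, 0.39 to 1.38), and Prkca and Prkcb were lower (-0.56 and -0.96). Prkcz, from 22 and 2 UMIs, was also at least 2-fold lower, Prkcd (-0.12) and Prkce (0.47) had intervals that include 0, and Prkci had fewer than 20 UMIs.

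The wider pathway was counted in the same way. Of 58 other genes of receptor signaling found in the files, 56 had at least 20 UMIs in the CD8 gate, of which 3 were at least 2-fold lower (Lax1, Cd6 and Nfatc3) and 4 at least 2-fold higher (Cblb, Themis, Nck2 and Ubash3b), beside 12.8% and 5.99% of all genes, with a median log2 ratio of -0.15 against the -0.18 of all genes. The highest were Ubash3b, a phosphatase that dampens receptor signals (131 and 509 CPM), Nck2, an adaptor (13.5 and 49.8 CPM), and Themis, a T cell adaptor (444 and 1005 CPM). Cblb, a ubiquitin ligase that restrains T cell activation, was also past 2-fold. Among NK gate cells 53 were measured, with a median of -0.23, and 3 were at least 2-fold higher (Dok1, Trdc and Ubash3b), where 5.01% of all genes were. Cd6, a coreceptor, was at 30.2 and 4.55 CPM there, Grap2, an adaptor, at 77.2 and 25.01 CPM, and Ptpn6, a phosphatase, at 90.1 and 29.6 CPM. The CD4 gate had 7 lower and 1 higher of 32, where 17.4% and 10.3% of all genes were, and the lowest were Sh2d2a, Rasgrp1 and Grap2, each from at most 3 MSA-2 UMIs, and the highest Themis (70 and 41 UMIs), Cblb and Malt1. Of 45 in the Foxp3 gate 1 was lower (Grb2, 147 and 4 UMIs) and 6 higher, where 14.5% and 9.56% of all genes were, with Sla and Cd28 next lowest and Dok1, Csk and Rasgrp1 highest, each from at most 6 MSA-2 UMIs.

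The beta chain constant genes, whose near-identical copies make the split between them uncertain, were lower in the CD8 gate, Trbc1 at 517 and 316 CPM (-0.71, -0.95 to -0.48) and Trbc2 at 1235 and 706 CPM (-0.81, -0.96 to -0.65). In the NK gate Trbc1 had a ratio of 0.10 (-0.09 to 0.28) and Trbc2, at 287 and 174 CPM, of -0.72 (-0.996 to -0.46), and Trdc, the constant gene of the delta chain, was higher, at 22.2 and 47.8 CPM, which is 2.15-fold, from 36 and 42 UMIs.

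Genes that respond to receptor signals went both ways. Of 9 measured in the CD8 gate, 4 were at least 2-fold lower, beside 12.8% of all genes. These were Egr2 (42 and 1 UMIs) and the nuclear receptors Nr4a1 (201 and 59.3 CPM, -1.76, -2.33 to -1.24), Nr4a3 (259 and 101 CPM, -1.35) and Nr4a2 (733 and 314 CPM, -1.22). Myc (1.49, 1.07 to 1.91) and Irf4 (1.32, 0.89 to 1.75) were at least 2-fold higher, beside 5.99% of all genes. Among the 8 measured in NK gate cells Nr4a1, Nr4a3 and Nr4a2 were again at least 2-fold lower (-1.93, -1.17 and -1.15), and Myc (1.64) and Cd69 (1.01) at least 2-fold higher, beside 8.47% and 5.01% of all genes. Egr3, with 21 untreated UMIs, had none in the MSA-2 CD8 gate, which at a floor of 3 UMIs is no 2-fold difference.

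**Figure D5:**
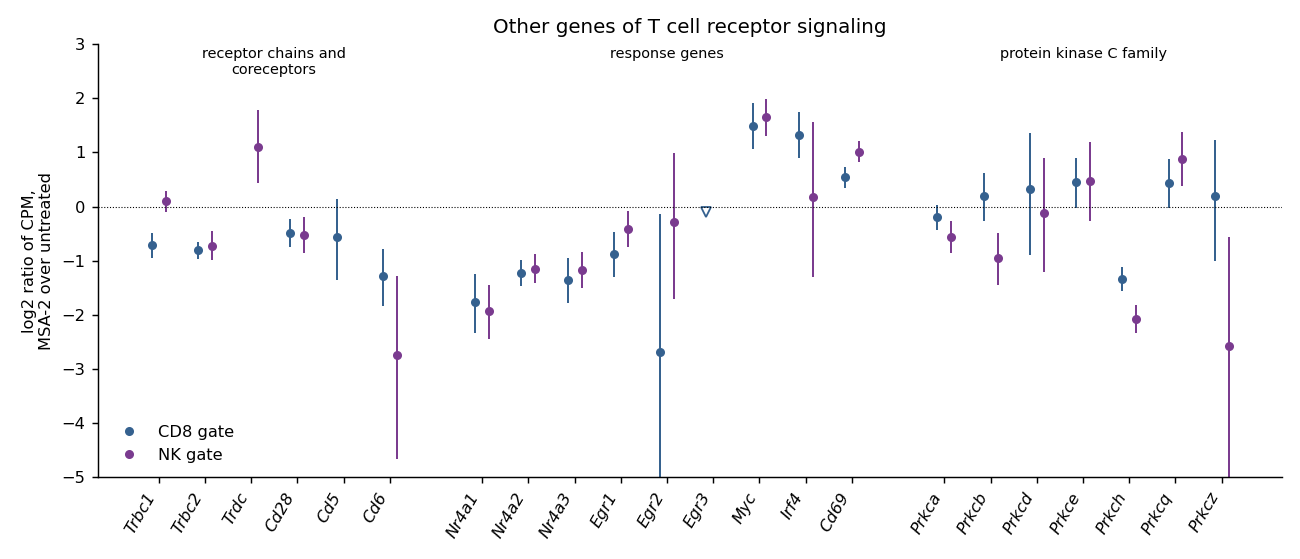
Log2 ratio of CPM, MSA-2 over untreated, for the genes reported here of 3 lists (receptor chains and coreceptors, response genes, protein kinase C family) that had at least 20 UMIs in the CD8 gate (blue) and the NK gate (purple), with exact 95% counting intervals cut at -5 and an open triangle for a gene with no MSA-2 UMI, set at the floor of 3 UMIs. Prkch and the 3 Nr4a genes lie below -1 in both gates, and Myc lies above 1 in both.

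Other measures moved together with these ratios in the 2 gates, and their part in the ratios was not tested. The 10 cycling genes summed to 1013 and 1962 CPM in the CD8 gate (log2 ratio 0.95) and 743 and 1004 CPM in the NK gate (0.43), and 7 cytotoxic genes to 3386 and 6121 CPM and to 11585 and 16355 CPM. Among CD8 gate cells without a cycling UMI, 269 untreated and 18 MSA-2, Prkch had a log2 ratio of -1.39 (-2.06 to -0.80), and among those with one, 478 and 75, of -1.25 (-1.49 to -1.02). Within the NK gate these were -2.46 (-3.25 to -1.76) and -1.90 (-2.19 to -1.63). For Cd3g in the CD8 gate the ratio was -0.08 (-0.43 to 0.25) without and -0.63 (-0.79 to -0.47) with a cycling UMI. Intervals of the other members overlapped between the 2 kinds of cells, with Lat at -0.05 (-1.20 to 0.92) and -0.93 (-1.49 to -0.41), Cd3d at -0.91 (-1.63 to -0.27) and -0.40 (-0.63 to -0.18), and Zap70 at -0.76 and 0.24.

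The neutrophil list of 12 genes also moved, from 59.1 to 359.8 CPM in the CD8 gate and from 29.0 to 357 CPM in the NK gate, with 10 of the 12 detected in each MSA-2 gate. S100a9, an abundant neutrophil RNA outside that list, went from 1 to 183 UMIs and from 0 to 229. The macrophage/monocyte list went from 134 to 88.0 CPM in the CD8 gate and from 89.5 to 95.5 CPM in the NK gate, and 9 genes read as free RNA of other cells, S100a9 among them, from 1292 to 842 CPM and from 889.6 to 823 CPM. The neutrophil class itself held 91 and 3541 cells, with Prkch at 61.3 and 14.5 CPM. Malat1, a nuclear long RNA, was lower in the CD8 gate (7843 and 5507 CPM, -0.51). Prkch spans 193 kb of chromosome 12 (73584796 to 73778185), and genes of 100 kb or more had median ratios of -0.15 in both gates. The medians were -0.21 and -0.18 for genes of 10 to 100 kb, and -0.12 and -0.06 for genes under 10 kb.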

How the data were processed

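Chromium 3′ (v3.1) libraries of pooled tumors from 3 mice per group were aligned by the authors to mm10 with Cell Ranger (7.0.0 per the submitters' processing notes and 7.0.1 per the file headers), and Seurat 4.3.0 is named for later steps. The deposited values are raw UMI counts per gene and cell barcode, 1 matrix per library, and whether doublets were removed before deposit is not given in the sources used here. Cells with at least 500 genes and at most 20% mitochondrial counts were kept, and Scrublet in scanpy 1.11.5 then took out 705 untreated and 570 MSA-2 cells as doublets. A cell took the class of which it held most of 12 markers (at least 3, ties unassigned; 1 macrophage marker was not among the features, so 11 were used). Gate genes were Cd8a and Cd8b1, Cd4, Foxp3, and Ncr1, Klrb1c and Klre1, and none of the 9 members. Counts of each gate's cells were added up and scaled by the gate's total to CPM. Log2 ratios carry exact conditional binomial intervals, levels exact Poisson and shares Clopper-Pearson intervals, all at 95% and for counting error only, since cells of 1 pool are not replicates. Ratio and interval code was tested on simulated data. With 1 library per group no test was run, and a gene was counted as lower or higher at 2-fold among genes with at least 20 UMIs in the gate. In these counts, medians and alternatives a sum of 0 was replaced by a floor of 3 UMIs. Sums of 1 or 2 UMIs were kept in counts and medians, so a gene at 0 could be scored as less low than these. Where that floor lay above the other library's level, counts and medians took no difference, and alternatives gave no value. Named genes were all 9 members, the 3 highest and 3 lowest pathway genes per gate, every protein kinase C and activation-motif partner gene, and the 3 genes most like Cd3e and Prkch, by Pearson r of log2(CPM + 10) among genes with at least 200 UMIs. Other genes were named after their values were seen. The members and lists were chosen with earlier results of these data known. Coordinates are GRCm38. Alternatives were other cell filters, doublets kept, gates set on thinned cells, other marker minimums, stricter gates, TMM scaling (edgeR 4.0.16), equal weight per cell and added CPM. Splits by CD3, alpha chain or cycling UMIs and ratios by gene span were chosen after seeing the data. The values of some pathway genes are not reported here.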

Additional observations from a re-analysis of the deposited data

Results flagged for a closer look

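Cd247 differed in direction between classes of cells, a difference that was not tested. Its log2 ratio was 0.49 in the CD8 gate and 1.61 in the CD4 gate, and -1.37 (interval -3.06 to -0.02) in the macrophage/monocyte class. The last value rests on 40 untreated and 5 MSA-2 UMIs among 4092 and 1607 cells, 1.58 and 0.614 CPM, a level read as background. Cd247 also differed in direction within the lymphoid class. In lymphoid cells outside the 4 gates it was lower, at 181 and 89.7 CPM from 180 and 11 UMIs (-1.02, -2.04 to -0.14). Its ratio was -1.05 (-4.13 to 0.87) in the Foxp3 gate and -0.17 (-0.41 to 0.06) over the whole lymphoid class.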

How the results depend on the processing

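No paired analysis was possible because each group is 1 pooled library and the labels give no replicate numbers. Of 469 gene ratios recomputed under other settings, 446 stayed inside the counting interval of the reported value, 22 left it and 1 turned from a called 2-fold difference to the other sign. In all, 46 had the other sign than the reported value, and 1 of these was among the 212 whose reported interval was clear of 0. Prkch stayed at least 2-fold lower under all 10 planned scalings and gate settings, from -1.60 to -1.22 in the CD8 gate and from -2.09 to -1.77 in the NK gate. Cd247 in the CD8 gate ranged from 0.01 to 0.57. Lat in the NK gate was 0.22 among cells without a cycling UMI, a split chosen after seeing the data that leaves 5 MSA-2 UMIs. With gates set after thinning, 2 genes (Lat joined Prkch) were at least 2-fold lower in the CD8 gate; the same gates held 2 MSA-2 cells in the CD4 gate and 1 in the Foxp3 gate, too few for a value for every gene. In the CD4 gate 1 gene was lower with at least 2 of 12 lymphoid markers and 0 higher with at least 5, and no MSA-2 cell had 2 UMIs of the gate gene. In the Foxp3 gate 0 genes were lower with doublets kept, with equal weight per cell or with 10 CPM added, 2 were with at least 2 or 5 markers, with 2 UMIs of the gate gene or under TMM, and 1 was higher with 2 UMIs of the gate gene. For these the cause was not tested. TMM moved all ratios by 0.07 in the CD8, -0.35 in the CD4, -0.39 in the Foxp3 and 0.08 in the NK gate. The number of MSA-2 cells limits the CD4 and Foxp3 gates.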
